A study of Mus musculus with 6 samples.

Results

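Smooth muscle and pericyte genes were examined in pressure-overloaded mouse hearts with and without cardiomyocyte overexpression of HINT2. The set held 10 genes, taken by gene name from the 54532 rows of the count table. Acta2, Tagln, Myh11, Cnn1 and Smtn belong to the contractile apparatus of vascular smooth muscle, and Rgs5, Cspg4, Pdgfrb, Notch3 and Vtn are used as markers of pericytes. All 10 had enough counts to be tested. RNA-seq of poly-A RNA was performed on the left ventricle of 3 TG and 3 NTG male mice, 4 weeks after aortic banding (AB), a narrowing of the aorta that loads the left ventricle. Mice were 8 to 10 weeks old at surgery.

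TG mice (genotype HINT2CTG-Myh6Cre) carry a CAG-HINT2 transgene and a Cre recombinase driven by Myh6, a promoter of cardiomyocytes, and received tamoxifen at 5 mg/kg/d for 7 days. NTG mice are labelled C57BL/6J. Whether NTG mice received tamoxifen is not stated, so HINT2, Cre and tamoxifen cannot be told apart in this comparison. The transgene is switched on in cardiomyocytes, and Myh6 is not a promoter of smooth muscle cells or pericytes. Both groups were banded, and no unbanded heart was analysed here.

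Smooth muscle cells ring the arteries of the heart and set their calibre by contraction, in which myosin pulls on actin filaments. Many of their contractile genes are switched on by serum response factor (SRF) and its partner myocardin, which bind a DNA element named the CArG box. Pericytes lie along capillaries, are recruited by PDGF-B from endothelial cells through the receptor PDGFRB, and share Notch3 and Rgs5 with smooth muscle cells. Activated fibroblasts of injured hearts can also switch on Acta2, Tagln and Cnn1.

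Libraries held 14863568 to 17581220 counts in NTG and 14944465 to 17235802 in TG libraries, and levels are given as CPM, counts scaled by library size and TMM factor. The library labelled NTG 1 had 12 counts of Hint2, the targeted gene, against 545 and 559 in the other NTG libraries and 793 to 859 in TG libraries. On the first principal component of all genes tested, NTG 1 at −5.08 lay between TG 2 at −10.7 and NTG 3 at 29.3. Fold changes of the 10 genes, and counts of most of the wider lists, are therefore also given without NTG 1. Every pair of libraries differed by more than sampling noise, and the smallest chi-square divided by genes was 15.5. With 3 libraries a group, an exact permutation test of a single gene cannot give a p below 0.1.

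To ask how genes of the vessel wall differed between TG and NTG hearts, the 10 genes were compared by edgeR's quasi-likelihood test. Acta2, Myh11, Cnn1 and Smtn of the contractile genes, and Vtn of the pericyte markers, were higher in each TG library than in each NTG library. Rgs5, Cspg4, Pdgfrb and Notch3 overlapped between the groups, and so did Tagln, which had few counts. A call needed both an edgeR adjusted p below 0.05 and a fold change beyond 0.5 on the log2 scale, in either direction. None of the set was called, and 0% of all 14774 genes tested were called higher and 0% lower by edgeR. The smallest adjusted p of any gene in edgeR's test was 0.196, a value that Acta2, Myh11, Cnn1 and Vtn shared. At an unadjusted p under 0.05, 5 of the 10 were higher and 0 lower, beside 8.83% of all genes higher and 9.76% lower. For 5 of the 10 genes TG and NTG libraries were fully apart, each higher in TG, beside 11.2% of all genes higher and 12.3% lower. Fitted fold changes were above 0 for 6 of the 10, beside 48.7% of all genes. Their median log2 fold change was 0.20, beside −0.0081 for all genes tested, and it was 0.43 for the 5 contractile genes and −0.067 for the 5 pericyte markers. The median of the 10 was 0.11 without NTG 2, and that of the pericyte markers was 0.094 without NTG 3 and 0.044 without TG 3, and −0.19, −0.11 and −0.15 without NTG 1, TG 1 and TG 2. The members were chosen with earlier results of these data known, so these counts are descriptions. In a whole-tissue sample, fewer cells of a type and less RNA per cell cannot be told apart.

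**Figure D1:**
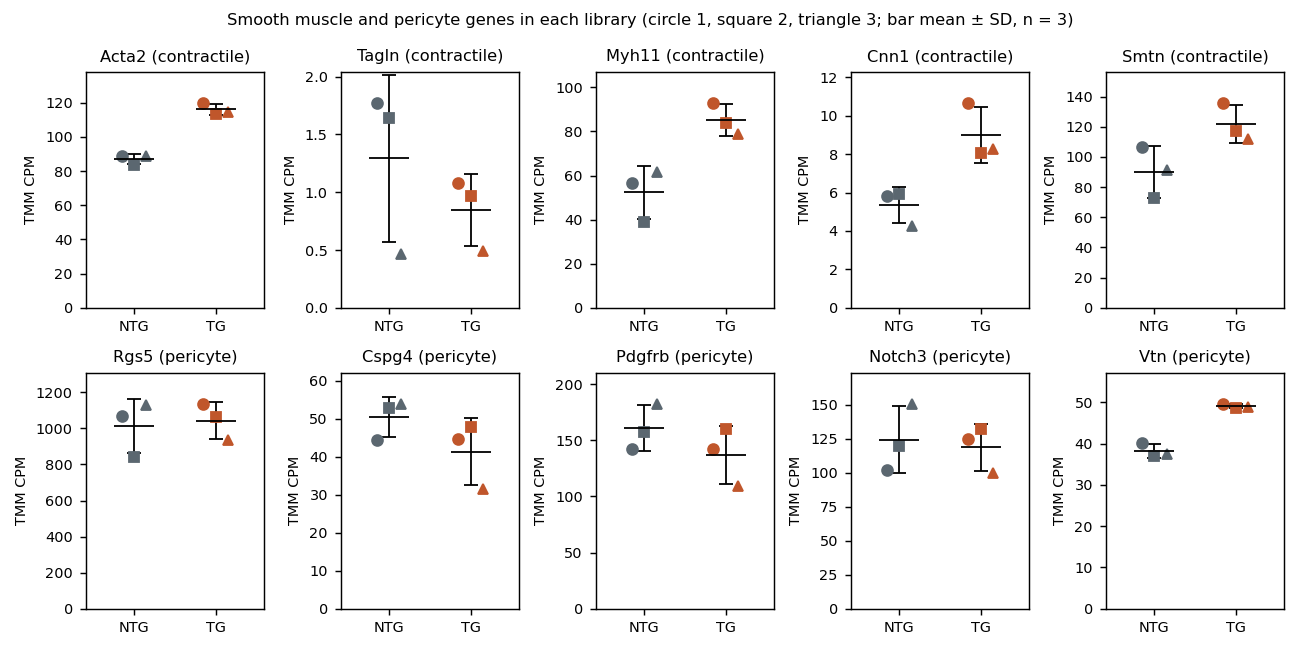
CPM with TMM scaling (vertical axis of each panel, from 0) of the 10 genes in the 3 NTG and 3 TG libraries, with group means and SD. Acta2, Myh11, Cnn1, Smtn and Vtn lay higher in each TG library than in each NTG library, while the other 5 genes overlapped.

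DESeq2, which the submitters' processing notes name, called 2 of the 10 genes higher, Myh11 and Cnn1, beside 1.54% of all genes called higher. At an adjusted p alone, without the fold threshold, DESeq2 passed 4 of the 10, namely Acta2, Myh11, Cnn1 and Vtn, beside 1.73% of all genes higher. edgeR without a low-count filter called Myh11, beside 0.432% of the genes tested there. Without NTG 1, edgeR called 0 of the 10. Acta2 and Vtn passed the adjusted p but not the fold threshold there, and Myh11, Cnn1 and Smtn the fold threshold but not the adjusted p, at 0.0651, 0.0758 and 0.0513. The 2 genes that passed the adjusted p stood beside 2.78% of all genes higher. DESeq2 without NTG 1 called Myh11, Cnn1 and Smtn, beside 5.92% of all genes. It called Myh11 without NTG 2, without NTG 3 and without TG 2, beside 0.313%, 0.264% and 1.94%. It called 0 of the 10 without TG 1 and without TG 3, where 0.679% and 0.193% of all genes were called higher, and 4 and 5 of the 10 were higher at an unadjusted p under 0.05, beside 4.71% and 5.06% of all genes.

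With NTG 1 left out, edgeR gave log2 fold changes of 0.43 for Acta2, 0.76 for Myh11, 0.81 for Cnn1, 0.57 for Smtn and −0.34 for Tagln. The pericyte markers then had 0.081 for Rgs5, −0.37 for Cspg4, −0.32 for Pdgfrb, −0.19 for Notch3 and 0.40 for Vtn. Directions were those found with all 6 libraries, and 5 of the 10 genes were again higher and 0 lower at an unadjusted p under 0.05, beside 13.7% of all genes higher and 13.3% lower in that fit.

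Acta2 (ENSMUSG00000035783) encodes the actin of smooth muscle thin filaments and occupies bases 34241090 to 34255336 of chromosome 19 (minus strand) on GRCm38. It measured 88.5, 83.5 and 88.6 CPM in NTG 1, 2 and 3, and 120.01, 114 and 115 CPM in TG 1, 2 and 3. The lowest TG library lay above the highest NTG library, and libraries within a group lay close together. Means were 86.9 ± 2.93 CPM (SD, n = 3) in NTG and 116 ± 3.48 CPM (SD, n = 3) in TG hearts. The log2 fold change was 0.42 (standard error, SE, 0.083, edgeR's adjusted p = 0.196), with a 95% interval of 0.23 to 0.61. By DESeq2 the log2 fold change of Acta2 was 0.42 and the adjusted p 0.00416. The range of its log2 fold change over the edgeR fits that each left out 1 library was 0.39 to 0.43.

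Myh11 (ENSMUSG00000018830), the smooth muscle myosin heavy chain that pulls on these filaments, occupies bases 14194535 to 14291372 of chromosome 16 (minus strand). It measured 56.7, 38.8 and 61.7 CPM in the NTG libraries and 93.0, 84.0 and 78.6 CPM in the TG libraries, in the order 1 to 3. NTG 2 was the lowest of the 6, and no NTG library reached a TG library. Means were 52.4 ± 12.03 CPM (SD, n = 3) in NTG and 85.2 ± 7.27 CPM (SD, n = 3) in TG hearts. The log2 fold change was 0.70 (SE 0.17), with adjusted p = 0.196 in edgeR and 0.0168 in DESeq2, and a 95% interval of 0.31 to 1.10. Without NTG 2 the log2 fold change was 0.52 in edgeR's fit.

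Cnn1 (ENSMUSG00000001349) encodes calponin 1, an actin-binding protein that restrains the myosin ATPase in smooth muscle, and occupies bases 22099216 to 22109630 of chromosome 9 (plus strand). Its counts were low, with 85, 112 and 74 in the NTG and 148, 142 and 134 in the TG libraries. In CPM these were 5.80, 5.95 and 4.28 in NTG and 10.7, 8.07 and 8.27 in TG libraries, so that the groups did not overlap. Means were 5.34 ± 0.923 CPM (SD, n = 3) in NTG and 9.01 ± 1.45 CPM (SD, n = 3) in TG hearts. The log2 fold change was 0.75 (SE 0.20), with adjusted p = 0.196 in edgeR and 0.0446 in DESeq2, and a 95% interval of 0.29 to 1.21.

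Smtn (ENSMUSG00000020439) encodes smoothelin, a cytoskeletal protein of contractile smooth muscle, and occupies bases 3517523 to 3540612 of chromosome 11 (minus strand). It measured 107, 72.5 and 91.4 CPM in NTG 1, 2 and 3 and 136, 117 and 112 CPM in TG 1, 2 and 3. NTG 1 lay just under TG 3, and NTG 2 was lowest. The log2 fold change was 0.43 (SE 0.15), with adjusted p = 0.215 in edgeR and 0.136 in DESeq2, and a 95% interval of 0.086 to 0.78. It was 0.57 without NTG 1 and 0.30 without NTG 2. In GENCODE release M21, 714 of its 4380 exon bases, or 16.3%, also belong to noncoding genes on the opposite strand, which held at most 11 counts in a library.

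**Figure D2:**
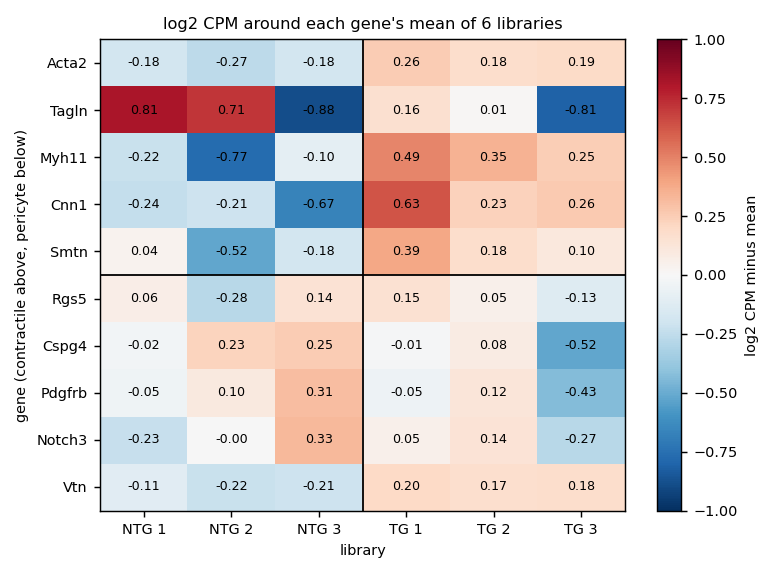
log2 CPM of each gene in each library around that gene's mean of 6 libraries (colour and printed number), with contractile genes above and pericyte markers below the line. Acta2, Myh11, Cnn1 and Vtn were under their mean in the 3 NTG libraries and over it in the 3 TG libraries, Smtn was so except in NTG 1 at 0.037, and TG 3 held the lowest Cspg4 and Pdgfrb.

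Tagln (ENSMUSG00000032085) encodes transgelin, also called SM22, an actin-binding protein related to calponin that smooth muscle makes in large amounts. In these libraries it had 26, 31 and 8 counts in NTG 1, 2 and 3 and 15, 17 and 8 counts in TG 1, 2 and 3. In CPM it was 1.29 ± 0.723 (SD, n = 3) in NTG and 0.847 ± 0.312 (SD, n = 3) in TG hearts, and NTG 3 at 0.463 lay under TG 3 at 0.494. The log2 fold change was −0.61 (SE 0.55, edgeR's adjusted p = 0.564) with a 95% interval of −1.86 to 0.65, the widest of the 10 genes. With 1 library left out it ran from −1.01 without NTG 3 to −0.33 without TG 3. The gene occupies bases 45929619 to 45936058 of chromosome 9 (minus strand). There, 1349 of its 1988 exon bases, or 67.9%, are also exons of genes on the opposite strand, namely 1241 of the antisense gene Gm48529 and 108 of Pcsk7. Gm48529 itself had 4 to 14 counts in each library. Whether the counting used strand is not stated, and without strand reads from such shared bases cannot be given to either gene. The part of this overlap in the low Tagln counts was not tested. Per kilobase of the 639 exon bases that Tagln does not share, its level was 2.03 CPM in NTG and 1.33 in TG hearts.

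**Figure D3:**
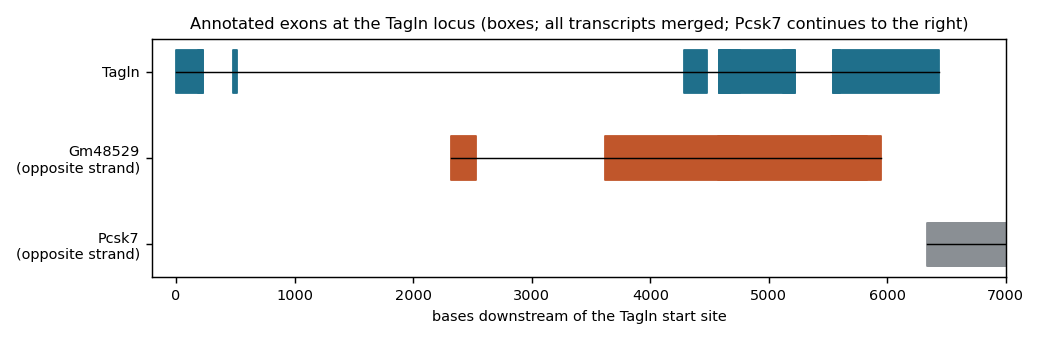
Annotated exons of Tagln and of the genes on the opposite strand, by distance in bases from the Tagln start site. Exons of Gm48529 cover 1241 and those of Pcsk7 108 of the 1988 exon bases of Tagln.

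RefSeq on GRCm38.p6 gave the promoter of 4 of the 5 genes that lay higher in each TG library, and these are printed so that their sequences can be read beside each other. RefSeq promoters were matched for 7 of the 10 genes, from 250 bases before to 50 bases after the start. Myh11, Tagln and Pdgfrb had no entry. Those shown are Acta2 (chr19:34255324-34255623, minus strand), Cnn1 (chr9:22099003-22099302, plus strand), Smtn (chr11:3539243-3539542, minus strand) and Vtn (chr11:78498870-78499169, plus strand). The Smtn gene begins at base 3540612 on the minus strand, so its window belongs to a start inside the gene. Capitals mark CArG-like elements, as defined after the sequences.
Acta2: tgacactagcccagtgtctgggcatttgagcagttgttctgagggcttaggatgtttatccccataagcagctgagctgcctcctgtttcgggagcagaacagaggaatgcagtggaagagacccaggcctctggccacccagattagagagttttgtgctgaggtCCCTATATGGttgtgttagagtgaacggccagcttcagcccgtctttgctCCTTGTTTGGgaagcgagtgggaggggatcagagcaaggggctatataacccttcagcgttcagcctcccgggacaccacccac
Cnn1: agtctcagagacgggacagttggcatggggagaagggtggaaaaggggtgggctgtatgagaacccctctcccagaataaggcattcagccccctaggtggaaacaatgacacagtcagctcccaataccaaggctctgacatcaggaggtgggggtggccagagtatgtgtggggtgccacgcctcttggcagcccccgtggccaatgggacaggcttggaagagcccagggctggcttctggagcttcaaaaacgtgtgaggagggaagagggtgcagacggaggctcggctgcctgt
Smtn: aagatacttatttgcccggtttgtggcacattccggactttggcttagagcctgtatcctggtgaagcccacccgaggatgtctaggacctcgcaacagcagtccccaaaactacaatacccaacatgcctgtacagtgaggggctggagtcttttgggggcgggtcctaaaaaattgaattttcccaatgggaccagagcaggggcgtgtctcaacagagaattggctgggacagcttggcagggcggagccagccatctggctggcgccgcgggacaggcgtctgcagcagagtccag
Vtn: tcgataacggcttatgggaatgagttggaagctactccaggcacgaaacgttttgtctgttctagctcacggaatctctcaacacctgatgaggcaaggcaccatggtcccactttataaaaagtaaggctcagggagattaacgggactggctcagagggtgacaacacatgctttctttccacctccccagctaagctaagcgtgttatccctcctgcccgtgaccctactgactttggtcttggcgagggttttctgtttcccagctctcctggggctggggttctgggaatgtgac
The strict form of a CArG box has a pair of C, a core of 6 bases that are A or T, and a pair of G. It reads the same way on both strands. None of the 7 promoters held this strict form, and 1.63% of 32851 RefSeq promoters of this length did. Sequence outside these windows was not searched, nor were Myh11 and Tagln. With 1 G or C allowed in the core, a form searched after the strict one had given no match, Acta2 held 2, CCCTATATGG at 84 to 75 and CCTTGTTTGG at 34 to 25 bases before the start. Such a form was present in 8.50% of all promoters and in none of the other 6. The letters GTGGGAA, bound by the Notch cofactor RBPJ, were searched on both strands and were in none of the 7 promoters and in 6.38% of all. TATAAA on either strand was in the Vtn promoter, as 2 overlapping matches, and in 13.6% of all promoters.

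For the pericyte markers other than Vtn, libraries of the groups overlapped, and each 95% interval of the log2 fold change held values in both directions. Rgs5 (ENSMUSG00000026678), which speeds the shut-off of G-protein signals and is a standard pericyte marker, occupies bases 169655501 to 169695813 of chromosome 1 (plus strand). It measured 1070, 842 and 1130 CPM in NTG and 1137, 1060 and 933 CPM in TG libraries, in the order 1 to 3, and the lowest library was NTG 2. Its log2 fold change was 0.042 (SE 0.16, edgeR's adjusted p = 0.906) with a 95% interval of −0.33 to 0.41, and −0.039 when TMM factors were left out. It was also below 0 without NTG 2, at −0.077, and without TG 1, at −0.026.

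Cspg4 (ENSMUSG00000032911) encodes NG2, a proteoglycan of the pericyte surface, and occupies bases 56865033 to 56899870 of chromosome 9 (plus strand). It measured 44.5, 52.9 and 54.0 CPM in NTG and 44.8, 47.9 and 31.5 CPM in TG libraries, and TG 3 stood lowest. Its log2 fold change was −0.29 (SE 0.16, edgeR's adjusted p = 0.369) with a 95% interval of −0.66 to 0.090. Leaving out TG 3 gave −0.13, and leaving out TG 2 gave −0.41.

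Pdgfrb (ENSMUSG00000024620) encodes the receptor through which PDGF-B recruits pericytes, and occupies bases 61045150 to 61085061 of chromosome 18 (plus strand). It measured 143, 158 and 183 CPM in NTG and 142, 160 and 109 CPM in TG libraries. TG 3 was lowest here too, and the other TG libraries lay within the range of NTG or just under it. Its log2 fold change was −0.23 (SE 0.16, edgeR's adjusted p = 0.441) with a 95% interval of −0.60 to 0.13. With 1 library left out it ran from −0.36 without TG 2 to −0.095 without TG 3.

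Notch3 (ENSMUSG00000038146), the Notch receptor of smooth muscle cells and pericytes, occupies bases 32120820 to 32166880 of chromosome 17 (minus strand). It measured 102, 119.9 and 151 CPM in NTG and 124, 132 and 99.4 CPM in TG libraries. The groups overlapped, with NTG 3 highest and TG 3 lowest. Its log2 fold change was −0.067 (SE 0.17, edgeR's adjusted p = 0.848) with a 95% interval of −0.45 to 0.31. Without NTG 3 it was 0.094 and without TG 3 0.044, and the other libraries left out gave −0.19 to −0.094, the lowest without NTG 1. Of the Notch3 exon bases, 6.03% are shared with an antisense gene, Gm17276, which had 5 to 18 counts.

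Vtn (ENSMUSG00000017344) encodes vitronectin, an adhesive protein that the liver secretes into plasma and that pericytes make in several tissues, and occupies bases 78499091 to 78502324 of chromosome 11 (plus strand). It measured 40.1, 37.1 and 37.4 CPM in NTG and 49.7, 48.7 and 49.0 CPM in TG libraries. The groups were clear of each other, and the TG libraries lay close together. Means were 38.2 ± 1.64 CPM (SD, n = 3) in NTG and 49.1 ± 0.507 CPM (SD, n = 3) in TG hearts. The log2 fold change was 0.36 (SE 0.082), with adjusted p = 0.196 in edgeR and 0.0366 in DESeq2, and a 95% interval of 0.17 to 0.55. Leaving out each library in turn gave 0.34 to 0.40 in edgeR's fit. Hepatocyte genes, read as a check on liver RNA, summed to 1.33 to 1.65 CPM in NTG and 0.577 to 2.10 CPM in TG libraries, and Alb had at most 0.512 CPM.

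Per kilobase of gene length, a scale on which levels of different genes can be set side by side, Rgs5 stood first at 226 CPM per kilobase over the 6 libraries. Acta2 followed at 57.0, and the ranges of these 2 genes over libraries did not overlap with each other or with the next. Pdgfrb at 27.2, Smtn at 24.2, Vtn at 21.5 and Notch3 at 15.1 formed a middle group in which each gene overlapped its neighbour. Myh11 at 9.06 stood apart from Notch3 above and from Cspg4 below. Cspg4 at 3.85 and Cnn1 at 2.62 overlapped, and Tagln was last at 0.539 CPM per kilobase of its full length. Per kilobase of unshared exon bases, Tagln was at 2.03 CPM in NTG and 1.33 in TG hearts, beside 1.95 and 3.29 for Cnn1.

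Further genes of the same cells were read from lists chosen with earlier results of these data known. Of 13 further smooth muscle genes, 3 were higher in TG and 1 lower at an unadjusted p under 0.05, beside 8.83% and 9.76% of all genes, and their median log2 fold change was 0.16. Libraries were fully apart for 3 genes higher in TG and for 2 lower, Cald1 and Synpo2, beside 11.2% and 12.3% of all genes. The 3 with the smallest unadjusted p were Mylk, Cald1 and Actg2. Mylk, the myosin light chain kinase that starts smooth muscle contraction, had a log2 fold change of 0.47 (SE 0.14, edgeR's adjusted p = 0.196) and did not overlap between groups. Actg2, the gamma actin of smooth muscle, had 0.95 (SE 0.34, edgeR's adjusted p = 0.217) at 1.11 to 3.25 CPM. Cald1, caldesmon, which fibroblasts and other cells also make, had −0.40 (SE 0.13, edgeR's adjusted p = 0.210). Of 12 further pericyte genes, 0 were higher and 3 lower at an unadjusted p under 0.05 in edgeR's test, beside the same shares of all genes, with a median of −0.20. These were Ndufa4l2, Kcne4 and Anpep, with log2 fold changes of −0.46, −1.39 and −0.42 and adjusted p values of 0.204, 0.217 and 0.221 from edgeR. Kcne4, a potassium channel subunit, had 18.4, 56.9 and 34.1 CPM in NTG and 13.0, 20.2 and 8.70 CPM in TG libraries, and NTG 1 lay under TG 2. Kcnj8 and Abcc9, which form the potassium channel of pericytes, had log2 fold changes of −0.025 and 0.22.

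**Figure D4:**
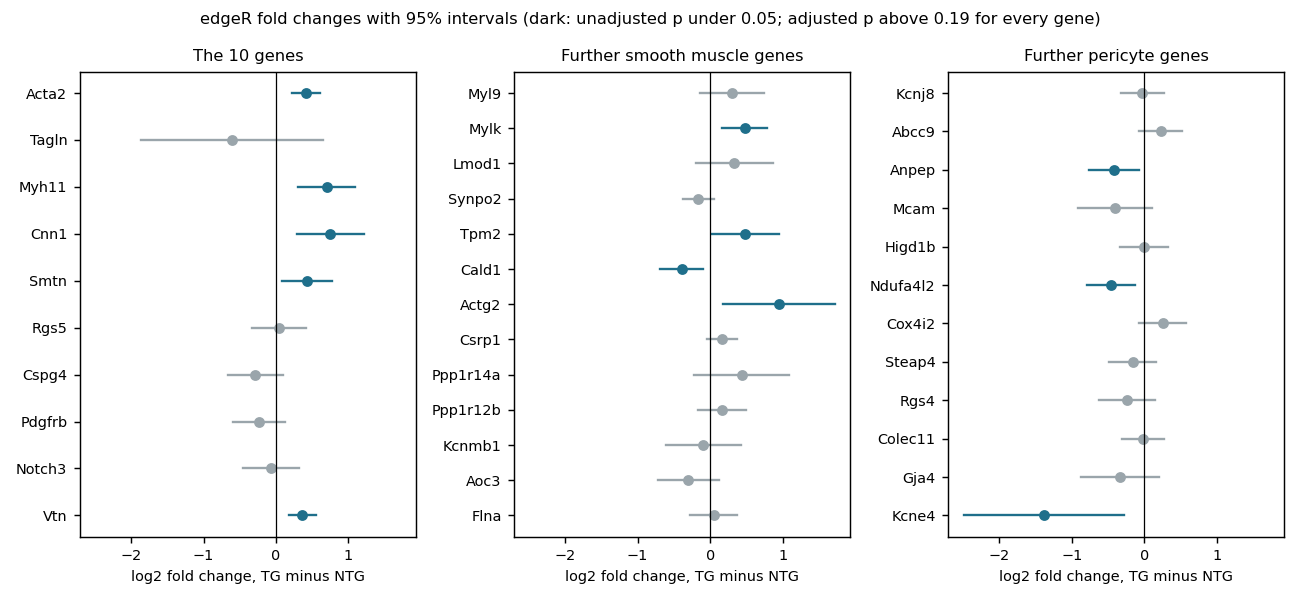
log2 fold change, TG minus NTG, from edgeR with 95% intervals (horizontal axis) for the 10 genes, 13 further smooth muscle genes and 12 further pericyte genes. Intervals of Acta2, Myh11, Cnn1, Smtn, Vtn, Mylk, Actg2 and Tpm2 lay above 0 and those of Cald1, Anpep, Ndufa4l2 and Kcne4 below 0, before adjustment for the number of genes tested.

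Of 7 regulators of the contractile programme, 3 were higher and 0 lower at an unadjusted p under 0.05, beside 8.83% and 9.76% of all genes. Srf had a log2 fold change of 0.31 (SE 0.12, edgeR's adjusted p = 0.230), Myocd, which encodes myocardin, 0.54 (SE 0.22, edgeR's adjusted p = 0.259), and Gata6 0.26 (SE 0.11, edgeR's adjusted p = 0.255). Myocd measured 41.0, 21.8 and 30.5 CPM in NTG and 52.5, 41.1 and 41.7 CPM in TG libraries, with NTG 1 just under TG 2. Srf and Myocd are also active in cardiomyocytes, so their level in a whole ventricle is not that of smooth muscle alone. The other 4, Mkl1, Mkl2, Klf4 and Klf5, had log2 fold changes from −0.35 to 0.33.

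Among the ligands and receptors around Pdgfrb, the ligand gene Pdgfb measured 90.8, 77.1 and 94.9 CPM in NTG and 192, 105 and 145 CPM in TG libraries. Its log2 fold change was 0.75 (SE 0.21, edgeR's adjusted p = 0.196), without overlap of the groups. Pdgfc had −0.57 and Pdgfra, the receptor of fibroblasts, −0.39 (adjusted p = 0.207 and 0.232, edgeR), and Pdgfa and Pdgfd had 0.11 and 0.024. Of 13 Notch ligands, receptors and targets, 2 were higher and 1 lower at an unadjusted p under 0.05, near the 8.83% and 9.76% of all genes, with a median of 0.013. Hey1 and Notch1 had log2 fold changes of 0.68 and 0.29, and Hey2, a target gene active in arteries, had −0.59 (adjusted p = 0.225, 0.231 and 0.213, edgeR). Heyl, a target of Notch3 in mural cells, had −0.18 and ranged from 56.7 to 121 CPM over the 6 libraries.

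None of the 4 angiopoietin and Tie genes had an unadjusted p under 0.05 in edgeR's test, beside 8.83% of all genes higher and 9.76% lower, and 2 of the 4, Angpt2 and Tie1, were higher in TG without overlap, beside 11.2% of all genes. Their log2 fold changes were 0.26 for Angpt2, 0.23 for Tie1, 0.45 for Angpt1, a ligand that pericytes make, and −0.0016 for Tek. Among the partners of vitronectin, the integrin genes Itgb5 and Itgav, whose products are receptor subunits for it, had log2 fold changes of −0.85 and −0.58 (adjusted p = 0.196 and 0.203, edgeR), while Vtn itself lay higher in TG. Itgb5 and Itgav were lower in each TG library than in each NTG library, beside 12.3% of all genes, while the libraries of Itgb3, another integrin gene, overlapped at a log2 fold change of −0.36.

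Close relatives of the 10 genes were read in the same fit, since cardiomyocytes make related actins at far higher levels. Actc1, the cardiac actin, and Acta1, the skeletal one, stood at 4916 and 3568 CPM per kilobase, against 57.0 for Acta2, with log2 fold changes of 0.34 and −0.13 (adjusted p = 0.405 and 0.813, edgeR). Of 2146 stretches of 50 bases in Acta2 transcripts, 0 were identical in Actc1, Acta1 or Actg2, so a read of that length without mismatches had 1 place among these genes. For Myh11, 26 of 6655 such stretches occurred in Myh9 or Myh10. The read length is not given in the sources used here. The relatives found in many cell types had log2 fold changes below 0, none of which passed the test. These were −0.041 for Actb, −0.20 for Actg1, −0.20 for Tagln2, −0.23 for Cnn2, −0.23 for Cnn3, −0.26 for Myh9 and −0.15 for Myh10. Their adjusted p values from edgeR were 0.300 to 0.917. Smtnl2 had 0.013, Rgs2 −0.21, Rgs4 −0.24, Notch2 −0.35 and Notch4 −0.069, and Tagln3 and Smtnl1 had too few counts to be tested.

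Markers of other cells of the ventricle were read in the same fit, and edgeR called none of them with all 6 libraries. Of 8 markers of activated fibroblasts, 8 had a fitted level lower in TG and 7 of these did not overlap, beside 12.3% of all genes lower without overlap, with a median log2 fold change of −2.06. Cthrc1, Fn1 and Postn had −4.36, −1.83 and −2.54 (adjusted p = 0.196 each, edgeR). The summed level of this list was 3454 to 10241 CPM in NTG and 1115 to 2653 CPM in TG libraries. That of the 5 contractile genes was 202 to 259 CPM in NTG and 314 to 361 CPM in TG libraries, which is the opposite order. Of 7 general fibroblast markers, 0 were higher and 3 lower at an unadjusted p under 0.05 in edgeR's test, beside 8.83% and 9.76% of all genes. Fitted levels of 6 were lower, with Pi16 and Dcn at −1.05 and −0.65, and that of 1, Gsn, was higher at 0.24. The list summed to 4036 to 4544 CPM in NTG and 3288 to 4428 CPM in TG libraries. Gsn, with means of 1923 CPM in NTG and 2273 in TG hearts, made up a large part of this sum.

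Of 8 cardiomyocyte markers, 8 had a fitted level higher in TG, beside 48.7% of all genes. Their median log2 fold change was 0.40, beside 0.43 for the contractile genes. At an unadjusted p under 0.05 in edgeR's test, 2 of the 8 were higher and 0 lower, beside 8.83% and 9.76% of all genes. Libraries of 1 of the 8 were fully apart, higher in TG, beside 11.2% of all genes. The list summed to 16385 to 26428 CPM in NTG and 25898 to 31796 CPM in TG libraries, and NTG 1 lay above TG 2. Myl2, Tnni3 and Pln had 0.59, 0.61 and 0.53 (adjusted p = 0.221, 0.224 and 0.314, edgeR). The summed level of 8 endothelial markers was 1625 to 1899 CPM in NTG and 1619 to 1884 CPM in TG libraries, and that of the 5 pericyte markers 1209.5 to 1554 and 1222 to 1498 CPM. Rgs5 alone, with means of 1014 CPM in NTG and 1043 in TG hearts, made up most of the pericyte sum. Egfl7, Kdr and Vwf of endothelial cells had 0.30, 0.37 and −0.81. Macrophage markers summed to 758 to 1372 CPM in NTG and 548 to 794 CPM in TG libraries, with Csf1r, Cd68 and Lyz2 at −0.59, −0.76 and −0.56. No marker of these fibroblast, cardiomyocyte, endothelial and macrophage lists was at 0 in any library. The part of these cell types in the values of the contractile genes was not tested.

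In edgeR's fit that left out NTG 1, the calls over the whole table were 404 higher and 432 lower, or 2.67% and 2.85%, and some list genes were among them. Myocd was called higher of the contractile regulators, and Pln of the cardiomyocyte markers. Itgb5, Itgav, Pi16, Col3a1, Vwf and Csf1r were called lower, and none of the further smooth muscle, further pericyte, PDGF, Notch or angiopoietin genes was called. Of 13 further smooth muscle genes 4 were then higher and 2 lower at an unadjusted p under 0.05, and of 12 further pericyte genes 1 was higher and 6 lower, beside 13.7% and 13.3% of all genes. Of the 7 contractile regulators 3 were higher and 1 lower, and of 13 Notch genes 1 and 3. Of 5 PDGF genes 1 was higher and 2 lower, of 4 angiopoietin and Tie genes 1 and 0, and of 17 paralogs 2 and 5. For markers of other cells these counts were 0 and 6 of 8 for activated fibroblasts, 0 and 3 of 7 for general fibroblasts, 4 and 0 of 8 for cardiomyocytes, 2 and 1 of 8 for endothelial cells and 0 and 3 of 6 for macrophages.

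**Figure D5:**
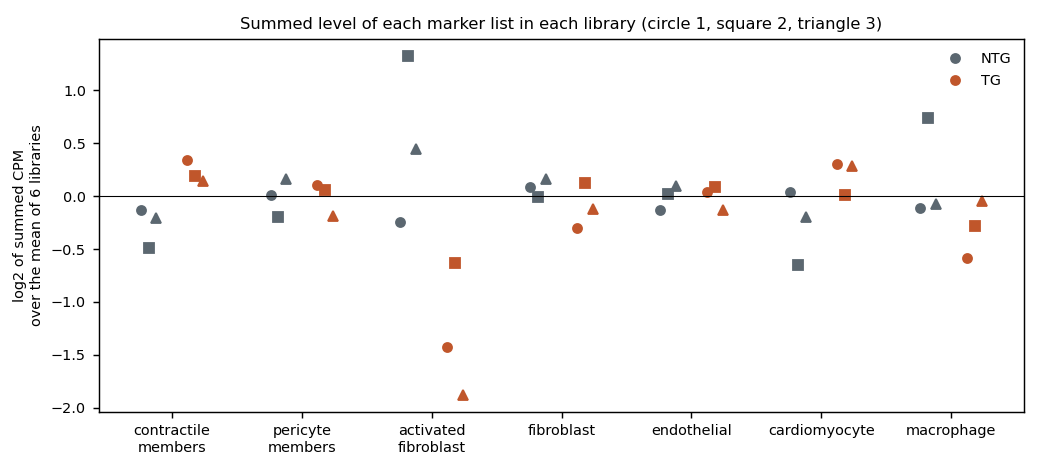
log2 of the summed CPM of each marker list over its mean of 6 libraries (vertical axis) in each NTG and TG library. The contractile list lay higher in each TG library (314 to 361 CPM against 202 to 259), the pericyte list overlapped, and activated fibroblast markers lay lower in TG (1115 to 2653 CPM against 3454 to 10241). Most of the pericyte sum was Rgs5.

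Per library, the mean log2 CPM of the 5 contractile genes around their mean of 6 libraries was 0.041, −0.21 and −0.40 in NTG 1, 2 and 3 and 0.38, 0.19 and −0.00073 in TG 1, 2 and 3. Here NTG 1 lay above TG 3, and Tagln stood at 0.81 in NTG 1 and −0.81 in TG 3. Without Tagln the values were −0.15, −0.44 and −0.28 in NTG and 0.44, 0.23 and 0.20 in TG libraries, and the groups did not overlap. For the pericyte markers without Vtn they were −0.060, 0.010 and 0.26 in NTG and 0.034, 0.097 and −0.34 in TG libraries. The genes whose log2 CPM over the 6 libraries was most like the mean of the contractile genes, among 9073 genes with a mean of at least 10 CPM, were Tle4, Vegfa and Cds1, with Pearson's r of 0.997, 0.994 and 0.989. Those most like the mean of the pericyte markers were Sbf2, Exoc6 and Nrp1, with 0.995, 0.987 and 0.973. With 6 libraries and this many genes, high values of r occur readily, and they are given as a description.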

How the data were processed

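Left ventricles of 3 TG and 3 NTG mice were profiled by RNA-seq after AB. Reads were cleaned and mapped by the authors, who then used featureCounts to obtain a count for each gene. The deposited values are raw counts, 1 column per heart, neither normalized nor pooled, and the table also holds a gene length in bases, deposited by the authors. The submitters' processing notes name HISAT2, DESeq2 and, for these mouse libraries, the build GRCh38. The positions in the table were compared with GENCODE mouse release M21 (GRCm38), where 98.3% of 54409 shared genes were identical, so GRCm38 was used. Column names gave the library of every column (0 without one). Strand setting and handling of reads with several places are not given in the sources used here.

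The test was that of edgeR 4.0.16 in R 4.3.3 (TMM, filterByExpr by group, robust quasi-likelihood test) across all 14774 genes kept, with Benjamini-Hochberg adjustment over all of them and no covariate. Calls needed an adjusted p below 0.05 with a fold change beyond 0.5 on the log2 scale. Intervals come from the fit, and log2 CPM had a prior count of 2. Alternatives were other scalings and filters, DESeq2 1.42.0, limma 3.58.1 (voom), a replicate block and each library left out, and, chosen after seeing the data, DESeq2 with each library left out. The fits were first tested on simulated data. The members and lists were chosen with earlier results of these data known. Named genes were the 10 members, their tested paralogs, from each list the 3 of smallest unadjusted p, and the 3 most like each group mean. Other list genes were named after their values were seen. A gene that this rule names is not reported here. Each library is 1 heart.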

Additional observations from a re-analysis of the deposited data

How the results depend on the processing

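The number of the 10 genes called moved with the test and the filter. It was 0 with edgeR, at other scalings, with at least 10 counts in every library, with limma-voom, with the replicate block and with any 1 library left out (range 0 to 0). It was 1 with no low-count filter, 2 with DESeq2, and, with DESeq2 without 1 library, 3 without NTG 1, 1 each without NTG 2, NTG 3 or TG 2, and 0 without TG 1 or TG 3. The cause was not tested. The median log2 fold change of the 10 genes was 0.20, or 0.36 with at least 10 counts in every library, a filter that left out Tagln, and 0.12 at library size alone, where the median of all genes was −0.093, and ran from 0.11 to 0.24 with libraries left out. With libraries left out of edgeR's fit, that of the contractile genes ran from 0.39 to 0.57, with 0.35 at library size alone and 0.58 under DESeq2 without NTG 1, and that of the pericyte markers from −0.19 to 0.094, with 0.10 under DESeq2 without NTG 3 and −0.15 at library size alone. Of 199 single-gene values under the alternatives, 181 kept direction and side of the thresholds, 9 passed the thresholds and 9, of Rgs5 and Notch3, turned sign. Rgs5 was −0.039 at library size alone, −0.077 and −0.074 without NTG 2 (edgeR and DESeq2), −0.026 and −0.022 without TG 1, and 0.13 without NTG 3 in both. Notch3 was 0.094 and 0.10 without NTG 3, and 0.044 and 0.051 without TG 3. The replicate block gave a median of 0.21 for the 10 genes and called 84 genes higher and 147 lower over the whole table but 0 of the 10. Deviations of same-numbered libraries correlated at 0.081, 0.17 and −0.25, and not every library correlated best with its own number, so the numbers were not taken to pair hearts. Counting error limits Tagln most, at 8 to 31 counts.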
